A study of Mus musculus with 24 samples.

Results

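The transcriptomes of C2C12 muscle tissues paced with blue light at 1 Hz were set against those of tissues left without light. The libraries were those titled 1 Hz and Control, 6 of each, so that 12 of the 24 libraries of the series entered the comparison. The other 12 were stimulated at 4 or 10 Hz and are used only where stated. C2C12 is a mouse myoblast line, and the tissues of both groups, controls included, were made from C2C12 myoblasts carrying ChR2::tdTomato, a channelrhodopsin fused to a red fluorescent protein that opens to blue light. A fibrin hydrogel carried the cells, which differentiated over about 2 weeks in horse serum medium with IGF-1. The stimulated tissues received light for 30 min each day. The tissues were made from a single engineered line without nerve, vessel, or immune cells, and the 24 libraries include no light-exposed group without the channel. The study reports spontaneous twitching in every condition, so control tissues, though left without light, may still have been exercised.

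Skeletal muscle contracts when an action potential in the fiber membrane opens voltage sensors coupled to calcium release channels of the sarcoplasmic reticulum, and the released calcium lets myosin heads of the thick filament pull on actin thin filaments. Calcium also drives gene programs through calcineurin, calmodulin kinases, and rapidly induced transcription factors, and contracting fibers release growth factors known as myokines. In cultured C2C12 tissue, myoblasts express Myod1, leave the cell cycle, fuse through Mymk and Mymx, and then build sarcomeres with embryonic and neonatal before adult isoforms. Most messenger RNAs carry a poly(A) tail, whereas nuclear-encoded ribosomal RNA, small structural RNAs, and replication-dependent histone messengers do not.

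The control libraries held 4194832 to 7648707 estimated counts and the 1 Hz libraries 4085578 to 15194554. Labels named the tissue as muscle, and all 10 muscle fiber markers were above 1 CPM (counts scaled to library size) in mean, with a summed level of 8343 to 10310 CPM in control and 11180 to 14850 CPM at 1 Hz. All 7 endothelial markers were below 1 CPM. The leukocyte markers Ptprc and Tyrobp were at or near 0. Cd68, which many cells make, was at 99.6 and 91.4 CPM, and Cd14 at 15.5 and 13.7 CPM, in control and at 1 Hz. Of 6 adipocyte markers 5 were below 1 CPM, with Plin1, Lep, and Cfd at 0, while Pparg was at 9.7 and 12.1 CPM. Of 8 neuron or Schwann cell markers 7 were below 1 CPM, and Stmn2 was at 58.9 and 53.8 CPM. Of 8 fibroblast markers 4 were tested, and the 4 others were below 1 CPM. Dpep1 (log2 fold change 1.13, 7.07 and 14.4 CPM in mean) and Pi16 (1.17, 0.851 and 1.89 CPM) rose. Cd34 (0.48, 37.2 and 48.9 CPM) and Pdgfra (0.45, 12.5 and 16.3 CPM) stayed under the size threshold given below. The summed level of the 8 ran from 47.1 to 70.0 CPM in control and from 72.4 to 89.4 CPM at 1 Hz. In these bulk samples, fewer cells of a type and less RNA per cell cannot be told apart. The study's methods call the samples of a group biological replicates, and all came from the same engineered line, so p-values here measure the spread between tissues of that line.

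RNAs without a poly(A) tail took a smaller share of the libraries at 1 Hz than in control. Over a list of 34 small RNA genes (7SK, 7SL, RNase P and MRP RNAs, and spliceosomal and nucleolar RNAs), the control libraries held a lowest share of 99.0, a median of 134, and a highest of 169 CPM of the raw total. The 1 Hz libraries held 15.6, 20.9, and 70.2 CPM. No 1 Hz library reached the lowest control, and 1 Hz library 1 was the highest of its group. The group means were 135 ± 25.3 and 30.7 ± 20.7 CPM (SD, n = 6 each), a ratio of 0.227 (2-sided exact permutation p = 0.002165, the smallest that 6 against 6 libraries allow, and Benjamini-Hochberg (BH) adjusted p = 0.003608 over 15 shares). The closest libraries were also apart in counting error, with 361 counts or 70.2 CPM in 1 Hz library 1 (95% Clopper-Pearson interval 63.2 to 77.8) and 547 counts or 99.0 CPM in control library 2 (90.9 to 108). These intervals cover counting error only. The share of RNA without a tail was examined because it was already known to be lower at 1 Hz in these libraries. The p-values and intervals for it, here and in the next paragraph, are therefore no independent support for the difference.

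A wider count of small RNAs from the annotation, which covers the same kinds of RNA, was also lower at 1 Hz. So were nuclear ribosomal RNA, mitochondrial ribosomal RNA, and replication-dependent histone genes. All small RNAs of the annotation together fell from 179 ± 29.7 to 38.5 ± 25.1 CPM (SD, n = 6 each). Nuclear ribosomal RNA fell from 1.16% ± 0.234 to 0.268% ± 0.200 of the total, with a range of 0.855% to 1.44% in control and 0.123% to 0.626% at 1 Hz. Mitochondrial ribosomal RNA fell from 0.594% ± 0.157 to 0.243% ± 0.0788, a ratio of 0.408 against 0.230 for nuclear ribosomal RNA. These 3 shares did not overlap between the groups (exact permutation p = 0.002165, BH adjusted p = 0.003608 for each). Replication-dependent histone genes, 68 in all, fell from 0.0443% ± 0.00730 to 0.0350% ± 0.00270, with overlapping ranges (exact permutation p = 0.01515, BH adjusted p = 0.0207). This summed share weighs abundant genes most, above all H1f2, which did not pass by itself and is given below. Long noncoding RNAs, of which most carry a poly(A) tail, took 2.74% ± 0.196 in control and 2.44% ± 0.0585 at 1 Hz, and protein-coding genes 93.9% ± 0.473 and 95.5% ± 0.255 (exact permutation p = 0.002165 and BH adjusted p = 0.003608 for both). On TMM-scaled library sizes the difference of long noncoding RNA did not pass (-0.161 percentage points). The libraries were made after poly(A) selection, and low-input samples, not named in the labels, by ribodepletion, so that the share of RNA without a tail could also differ by preparation, and whether it did was not tested.

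**Figure D1:**
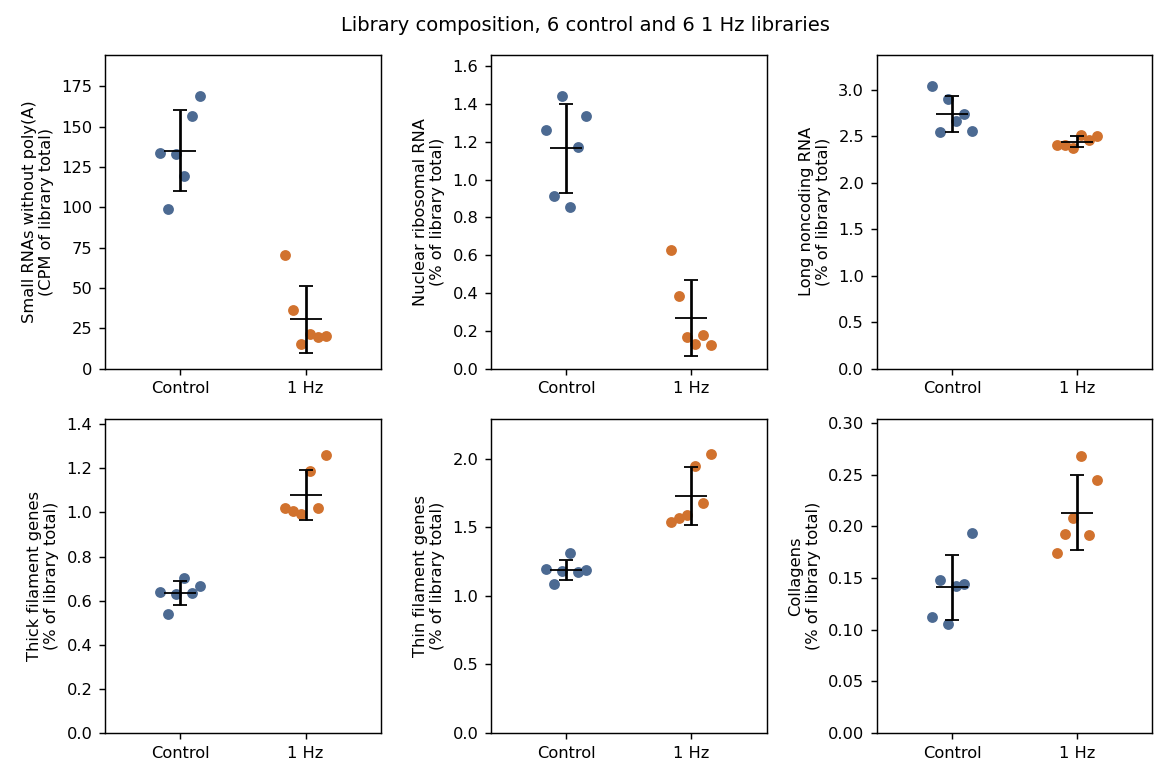
Share of each library taken by 6 RNA classes. The y axes give CPM or percent of the raw total from 0, points are libraries, horizontal bars the mean and error bars the SD over 6 libraries. The 1 Hz libraries lie below all controls for small RNAs (15.6 to 70.2 against 99.0 to 169 CPM) and nuclear ribosomal RNA, and above all controls for thick and thin filament genes.

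Among single genes of these classes, counts were tested with edgeR, and a gene was counted as changed at a BH adjusted p below 0.05 over 13318 genes with an absolute log2 fold change above 0.5. Of 5 small RNA genes abundant enough to be tested, 3 fell, against 8.99% of all genes. Rn7sk, the 7SK RNA that holds the elongation kinase P-TEFb inactive, had 37.1, 62.4, and 79.3 CPM (lowest, median, and highest; single-gene CPM are TMM-scaled) in control and 4.29, 8.27, and 27.6 CPM at 1 Hz, with no overlap (log2 fold change -2.49 ± 0.43 SE, edgeR adjusted p = 0.000101). Rpph1, the RNA subunit of RNase P, had 1.75, 3.60, and 5.23 CPM in control and 0, 0.518, and 2.22 CPM at 1 Hz, the groups overlapping (-2.39 ± 0.54, edgeR adjusted p = 0.0014). Rn7s2, a 7SL RNA of the signal recognition particle, was at 0 in some libraries of both groups and up to 73.9 CPM in control and 10.4 CPM at 1 Hz (-3.78 ± 1.43, edgeR adjusted p = 0.0405), a call lost on leaving out 8 of the 12 libraries in turn. Its copy Rn7s1 gave -1.10 (edgeR adjusted p = 0.333), and since the copies are nearly identical, reads could be split between them. None of the 5 genes, which are 271 to 331 bases long, held a poly(A) signal AATAAA. The last 40 bases of Rn7sk and Rpph1 are given below as examples, and the capitals mark the run of T that ends 7SK (GRCm39, both strands being stated, sequence of the transcript strand).
Rn7sk, chr9:78082585-78082624, minus strand: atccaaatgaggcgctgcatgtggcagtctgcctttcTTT
Rpph1, chr14:51044906-51044945, minus strand: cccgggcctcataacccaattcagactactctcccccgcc

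Of the 17 histone genes tested, 5 fell and H2bc12 rose (log2 fold change 0.76), with a median of -0.56. Beside this, 8.99% of all genes fell and 9.34% rose, and of the 2664 genes of lowest mean 506 fell and 243 rose. H1f3, a linker histone, had 2.56, 5.23, and 9.39 CPM in control and 0.847, 1.36, and 2.31 CPM at 1 Hz, without overlap (-1.98 ± 0.33, edgeR adjusted p = 8.21e-05). H2bc6, a core histone, had 3.49, 5.68, and 6.70 CPM in control and 0.954, 1.73, and 3.28 CPM at 1 Hz (-1.60 ± 0.28, edgeR adjusted p = 0.000137). H2bc21 (-1.11), H3c4 (-1.32), and H2ac6 (-0.70) were the others that fell. The calls of H3c4 and H2ac6 were each lost on leaving out either of 2 libraries, and that of H2bc12 without 1 Hz library 4. H1f2, the most abundant histone gene tested, stood at 260 and 209 CPM in mean, the groups overlapping (-0.32, edgeR adjusted p = 0.0543). H2bc4, the most abundant H2B gene tested, stood at 84.0 and 83.3 CPM in mean. A stem-loop takes the place of the poly(A) tail in these messengers, and a search of the transcribed strand, from the gene start to 60 bases past its end, for the 16-letter pattern GGNNCTTTTNANNGCC found it in 16 of the 17 genes and in 4 of the 5 that fell, all but H2bc21. The stem arms are in capitals and the loop in lower case below (GRCm39), for the pair of genes that fell most and for the gene that rose. The loop of H2bc12 ended in another base, as did that of H2bc13, which has the same letters and a log2 fold change of -1.50 that did not pass.
H1f3, chr13:23739961-23739976, plus strand: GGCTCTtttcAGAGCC
H2bc6, chr13:23769514-23769529, minus strand: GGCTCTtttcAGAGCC
H2bc12, chr13:22220470-22220485, plus strand: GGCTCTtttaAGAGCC

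A list of long noncoding RNAs, nuclear, imprinted, or other, included both falls and rises. Of 20 tested, 6 fell and 2 rose (median log2 fold change -0.29), beside 8.99% and 9.34% of all genes. Falls were common in the whole class, where 236 of 698 long noncoding RNAs tested fell and 40 rose (median -0.40). The count for these 20 is thus not particular to them. Malat1, a nuclear speckle RNA that is processed at its end without a tail, had 1127, 1758, and 2201 CPM in control and 461, 615, and 1005 CPM at 1 Hz, without overlap (-1.33 ± 0.24, edgeR adjusted p = 0.000153). Neat1, the scaffold of paraspeckles, fell by 0.78 on the log2 scale (edgeR adjusted p = 0.00192). Kcnq1ot1 and Airn are both long imprinted antisense transcripts, and Kcnq1ot1 fell (-1.36) while Airn was at 0.21 (edgeR adjusted p = 0.344). Mir17hg (0.91) and Pvt1 (0.59) rose, and H19, the most abundant RNA of the list at 17660 and 17940 CPM in mean, was at 0.02 (edgeR adjusted p = 0.853).

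Across all genes, 1244 of 13318 rose and 1197 fell at 1 Hz, or 18.3% in all, 9.34% up and 8.99% down. The changes were mostly moderate. The median log2 fold change was 0.75 among genes that rose and -0.82 among genes that fell, 326 and 433 genes passed beyond 1, and 24 and 51 beyond 2. In 632 of the genes that rose and 531 that fell the 6 and 6 libraries did not overlap, against 7.22% and 5.85% of all genes with 1 Hz above or below. The median over all genes tested was -0.01, and scaling by total count moved it to -0.08 and turned the split to 942 higher and 1595 lower.

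Genes that fell were of lower abundance and more often noncoding. Of the 2664 genes of lowest mean (0.23 to 4.65 CPM), 243 rose and 506 fell, and of the 2664 of highest mean (from 88.7 CPM), 245 rose and 46 fell. Of 698 long noncoding RNAs tested, 40 rose and 236 fell (median log2 fold change -0.40), whereas of 11986 protein-coding genes 1182 rose and 900 fell (median 0.00). Protein-coding genes that fell had a median of 5 exons, a transcript length of 3147 bases, and a GC content of 48.5%, and those that rose 11 exons, 4053 bases, and 51.9%, beside 9 exons, 3483 bases, and 50.4% over all protein-coding genes tested. These are descriptions without a test.

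The difference in RNA without a tail moved with the comparison, and the groups could not be told apart from it. With the log2 share of the small RNA list of each library as a covariate, 1 gene rose (Arc, 1.64) and 0 fell in edgeR, with 1318 genes at an unadjusted p below 0.05 against 5910 without the covariate. With the ribosomal RNA share as covariate 1 gene rose (again Arc, 1.53) and 1 fell, with 1561 at an unadjusted p below 0.05. The gene that fell was the pseudogene Gpr137b-ps, named after its values were seen, which stood at 2.74 ± 3.08 CPM in control and 2.10 ± 3.28 CPM at 1 Hz. Neither share overlapped between control and 1 Hz. Every gene call of 1 Hz against control made without a covariate, whether given above or below, is lost in both fits except that of Arc. The comparisons of higher frequencies with 1 Hz given below are not reported under these fits.

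**Figure D2:**
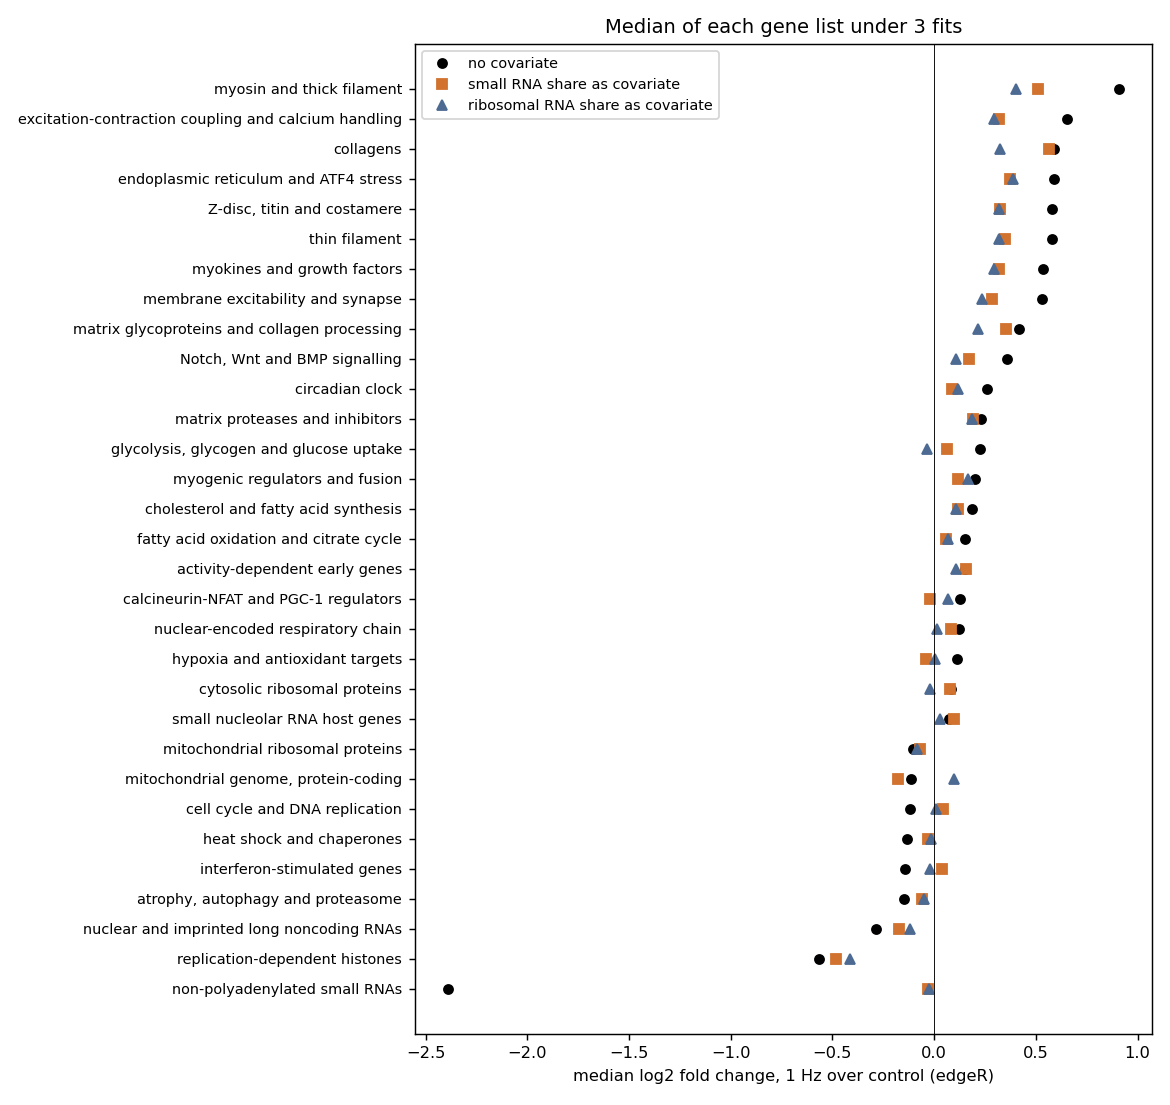
Median log2 fold change of 1 Hz over control for each gene list, from edgeR without a covariate (circles), with the small RNA share (squares), and with the ribosomal RNA share (triangles). The thick filament median went from 0.91 to 0.51 and 0.40, the median of the ER and ATF4 list from 0.59 to 0.37 and 0.39, and that of the small RNAs from -2.39 to -0.03 in both.

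Among genes with a mean of at least 10 CPM and no overlap of libraries, 517 rose and 242 fell. Arc, Nrg1, and Car6 led the rises and Rn7sk, Hspa1a, and Snhg7 the falls, and the next in rank were as follows. Kcnk13, a tandem pore potassium channel, had 4.19, 5.43, and 7.67 CPM in control and 15.04, 21.3, and 26.4 CPM at 1 Hz (log2 fold change 1.87 ± 0.25, edgeR adjusted p = 6.44e-06). Col6a2 and Col6a1, neighbouring genes on chromosome 10 that code for chains of the microfibrillar collagen VI around muscle fibers, rose together. Col6a1 had 29.2, 38.2, and 62.8 CPM in control and 73.8, 138, and 192 CPM at 1 Hz (1.78 ± 0.27, edgeR adjusted p = 2.56e-05), and Col6a2 rose by 1.82. Nfatc1, a transcription factor that calcineurin moves into the nucleus, had 10.8, 15.7, and 18.7 CPM in control and 27.6, 52.0, and 68.6 CPM at 1 Hz (1.75 ± 0.23, edgeR adjusted p = 5.57e-06).

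Inhbb, a subunit of activin and inhibin (1.67), and Medag (1.64) also rose. Medag was tightly grouped in control at 36.2 to 43.9 CPM and spread at 1 Hz from 69.2 to 186 CPM. Among genes that fell, Txnip, which holds back glucose uptake and thioredoxin, had 146, 160, and 281 CPM in control and 43.4, 57.1, and 71.9 CPM at 1 Hz (-1.67 ± 0.18, edgeR adjusted p = 1.04e-06). Hoxa7, a homeobox gene, had 20.4, 22.6, and 26.3 CPM in control and 4.23, 6.90, and 10.6 CPM at 1 Hz (-1.67 ± 0.19, edgeR adjusted p = 1.23e-06). Tlcd2 (-1.77), which acts on membrane lipids, and Apol9b (-1.70) also fell. Nefl, the neurofilament light chain, ran from 37.1 to 132 CPM in control and from 9.87 to 26.4 CPM at 1 Hz (-2.04 ± 0.37, edgeR adjusted p = 0.000184). The remaining genes of largest fall were the ribosomal RNA gene Rn18s-rs5 (-2.07) and Lars2 (-1.68). Lars2 codes for the mitochondrial leucyl tRNA synthetase, but its mouse transcript holds sequence like ribosomal RNA, so its count is uncertain, and with the ribosomal RNA share as covariate its fold change was 0.26.

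**Figure D3:**
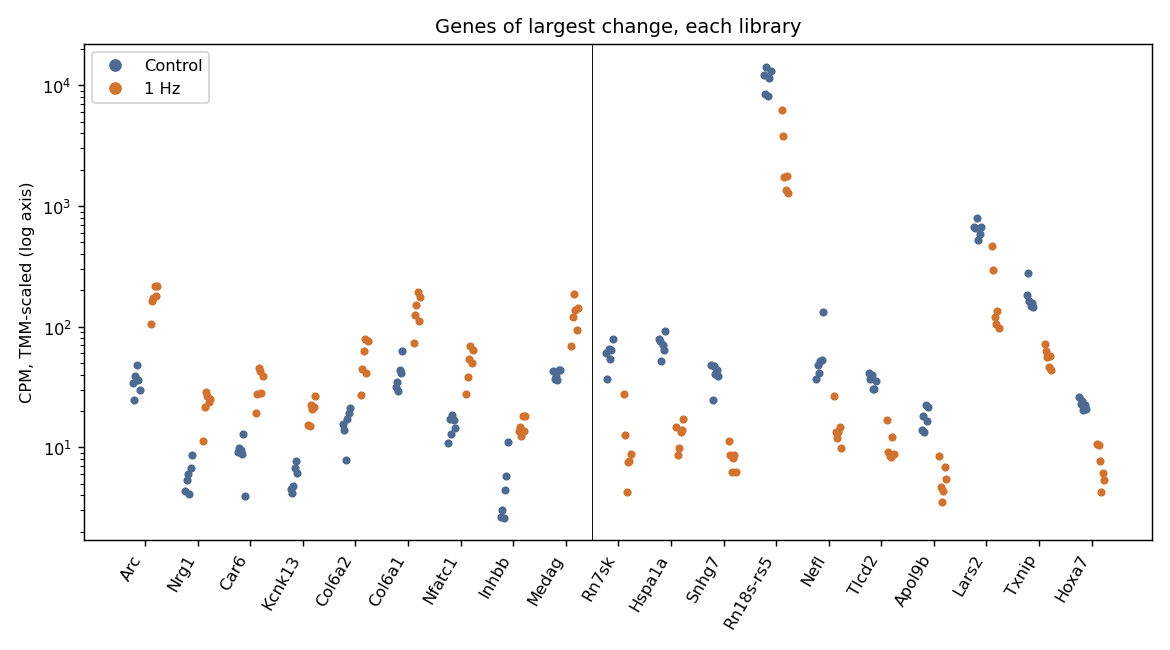
TMM-scaled CPM, on a log axis, of genes of largest rise (left of the line) and largest fall (right) at 1 Hz, each point a library (6 control, 6 at 1 Hz). No gene shown has overlapping groups, as the rule for choosing them required, and the spread within 1 Hz is widest for Rn18s-rs5, Lars2, and Rn7sk.

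Genes of the sarcomere rose. Lists of genes by function were set with earlier results of these data known, and each is described by the count of tested members that passed and their median, beside 9.34% of all genes up, 8.99% down, and a median of -0.01. Of 20 genes of myosin and the thick filament, 19 rose and 0 fell, with a median log2 fold change of 0.91. Of 20 thin filament genes, 14 rose and 0 fell, with a median of 0.58 and all 20 fold changes above 0. Of 28 genes of the Z-disc, titin, and the costamere, 16 rose and 0 fell, with a median of 0.58.

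Mybph, a myosin-binding protein of the thick filament, had 412, 532, and 648 CPM in control and 1102, 1240, and 1498 CPM at 1 Hz (1.26 ± 0.18, edgeR adjusted p = 1.27e-05). The M-band genes Myom1 (0.92), Myom3 (0.81), and Myom2 (0.77), and the myosin chaperone Unc45b (0.90) rose as well. The exception in the list was Mylk2, the kinase of the fast regulatory light chain, at 18.1 and 13.6 CPM in mean (-0.46, edgeR adjusted p = 0.0606). In the thin filament, Acta1, the actin of skeletal muscle and the most abundant gene of the list, had 2615, 2811, and 3466 CPM in control and 3810, 4614, and 6368 CPM at 1 Hz (0.78 ± 0.15, edgeR adjusted p = 0.00038). Actc1 (0.81), the cardiac actin of immature fibers, the troponins Tnni2 (0.75) and Tnnt2 (0.67), and Tpm2 (0.64) rose beside it, and the giant ruler Neb was at 0.27 (edgeR adjusted p = 0.0503).

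At the Z-disc, Actn2, which crosslinks actin, had 90.4, 98.4, and 114 CPM in control and 181, 206, and 285 CPM at 1 Hz (1.16 ± 0.17, edgeR adjusted p = 1.85e-05). Csrp3, a stretch-responsive LIM protein, had 46.0, 55.8, and 66.7 CPM in control and 97.3, 125, and 154 CPM at 1 Hz (1.15 ± 0.15, edgeR adjusted p = 5.12e-06). Both had every 1 Hz library above every control. Actn3 (0.96), Ankrd2 (1.03), Myot (1.07), and dystrophin Dmd (1.33) rose. Ttn, the molecular spring of the sarcomere, was at 1030 and 1076 CPM in mean (0.06, edgeR adjusted p = 0.655), and Ankrd1, which responds to load, at 1108 and 1070 CPM (-0.05, edgeR adjusted p = 0.786).

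The 6 myosin heavy chains of skeletal muscle all rose, and no shift among them was detected. On the deposited TPM, which are per length and so allow isoforms to be compared, their summed level was 305 ± 60.8 in control and 662 ± 121 at 1 Hz (SD, n = 6 each), with ranges of 249 to 392 and 540 to 815 (2-sided exact permutation p = 0.002165). Embryonic Myh3 had the highest mean in both groups. Its levels were 62.9, 78.9, and 136 TPM (lowest, median, and highest) in control and 157, 185, and 249 TPM at 1 Hz. In control library 2 Myh1 was above it (64.5 against 62.9 TPM), and in control library 3 Myh7 was (69.2 against 64.7 TPM). Myh1, the fast IIx isoform, had 72.9 ± 20.7 and 159 ± 16.7 TPM, slow Myh7 64.0 ± 9.10 and 123 ± 42.4 TPM, and neonatal Myh8 57.9 ± 6.72 and 136 ± 17.9 TPM (SD, n = 6 each). Fast IIb Myh4 was lower, at 15.5 ± 2.51 and 30.8 ± 5.59 TPM, and fast IIa Myh2 lowest, at 6.58 ± 0.706 and 14.5 ± 3.80 TPM. In edgeR the rise of the 6 genes lay between 1.05 (Myh4) and 1.31 (Myh8). As a share of the sum, Myh3 went from 28.3% to 29.8%, Myh1 from 23.6% to 24.4%, Myh7 from 21.4% to 18.2%, Myh8 from 19.3% to 20.8%, Myh4 from 5.14% to 4.71%, and Myh2 from 2.20% to 2.17%, and none of the 6 differed beyond the spread between libraries (exact permutation BH adjusted p from 0.429 to 0.810). At 1 Hz Myh3 (157 to 249 TPM), Myh1 (141 to 179 TPM), Myh8 (119 to 159 TPM), and Myh7 (73.6 to 174 TPM) overlapped in level.

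**Figure D4:**
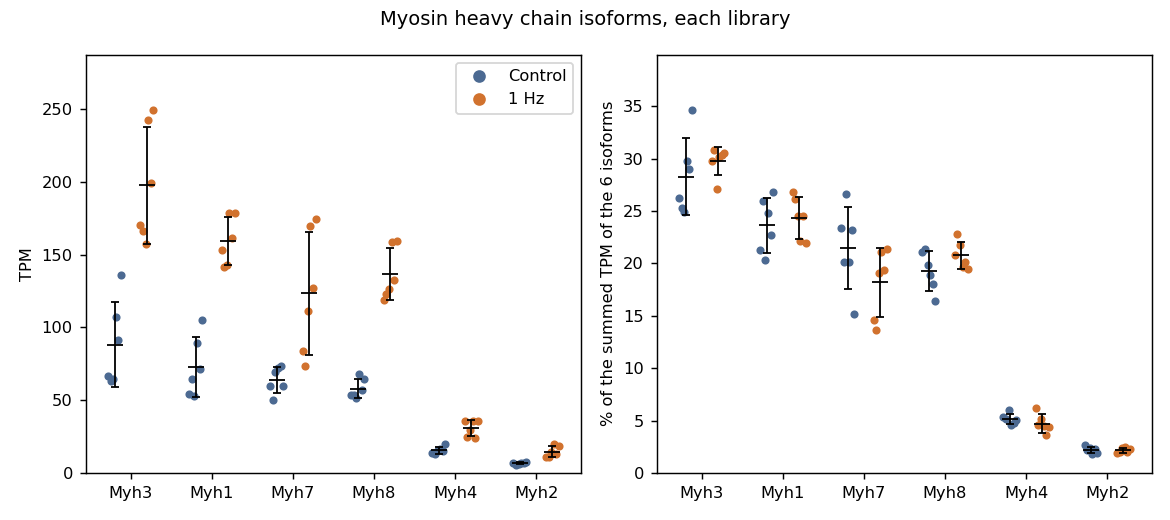
TPM of the 6 myosin heavy chain genes (left) and their share of the summed TPM (right), with both axes from 0. Points are libraries, bars the mean and SD over 6. Every isoform is higher in TPM at 1 Hz, while the shares of control and 1 Hz overlap for all 6.

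Genes that couple the action potential to calcium release rose with those of the sarcomere. Of 32 tested, 20 rose and 0 fell, with a median log2 fold change of 0.65. Cacna1s, the voltage sensor of the transverse tubule, had 65.6, 69.0, and 77.4 CPM in control and 104, 132, and 169 CPM at 1 Hz (0.96 ± 0.14, edgeR adjusted p = 1.58e-05). Ryr1, the release channel it acts on, had 126, 143, and 157 CPM in control and 165, 229, and 304 CPM at 1 Hz (0.72 ± 0.13, edgeR adjusted p = 0.000145). Neither gene overlapped between groups, although Cacna1s did not pass in limma on log2(TPM + 1).

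On the uptake and storage side, the calcium pump Atp2a1 had 399, 480, and 519 CPM in control and 649, 888, and 1084 CPM at 1 Hz (0.92 ± 0.14, edgeR adjusted p = 3.25e-05). The calcium buffer Casq2 had 532, 561, and 660 CPM in control and 925, 1064, and 1156 CPM at 1 Hz (0.87 ± 0.10, edgeR adjusted p = 1.22e-06). Casq1 (0.91), the junctional protein Jph2 (0.89), Hrc (0.77), and the store-operated calcium sensor Stim1 (0.82) also rose. Mrln, a micropeptide that inhibits the pump, was low at 0.671 to 2.18 CPM in control and 4.21 to 7.22 CPM at 1 Hz (2.07 ± 0.31, edgeR adjusted p = 2.49e-05). The calmodulin kinases Camk2a (1.09) and Camk2b (1.06) rose, and Camk2g was at -0.01 (edgeR adjusted p = 0.936).

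Of 25 genes of membrane excitability and the synapse tested, 13 rose and 0 fell (median log2 fold change 0.53). Chrng and Chrnd code for the fetal gamma and the delta subunit of the muscle acetylcholine receptor. Chrng had 213, 249, and 336 CPM in control and 370, 447, and 563 CPM at 1 Hz (0.83 ± 0.13, edgeR adjusted p = 5.95e-05), and Chrnd 147, 169, and 196 CPM in control and 226, 278, and 298 CPM at 1 Hz (0.67 ± 0.10, edgeR adjusted p = 1.32e-05). The groups did not overlap for either. The alpha subunit Chrna1 (0.37) and the beta subunit Chrnb1 (0.46) had adjusted p-values of 0.00314 and 0.0015 in edgeR and stayed under the size threshold. Musk (0.60) and Agrn (0.68), the receptor kinase and ligand that cluster these receptors, Colq (1.15), which anchors acetylcholinesterase, and the sodium channel Scn4a (0.73), which carries the muscle action potential, rose.

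Regulators of myogenesis moved in both directions. Of 24 tested, 8 rose and 2 fell, with a median log2 fold change of 0.20. Myod1, the determination factor of muscle, had 24.5, 31.6, and 53.0 CPM in control and 68.0, 75.9, and 107 CPM at 1 Hz, without overlap (1.17 ± 0.24, edgeR adjusted p = 0.000456). Mymk, a fusogen of the myoblast membrane, had 210, 246, and 314 CPM in control and 346, 415, and 514 CPM at 1 Hz (0.75 ± 0.13, edgeR adjusted p = 0.00012), and its partner Mymx (0.88), the adhesion molecule Ncam1 (0.87), and Mef2c (0.82), a cofactor of myogenic factors, rose with it. Myog, which drives terminal differentiation, was at 0.47 (edgeR adjusted p = 0.0144), under the size threshold. Six4, a homeobox factor, stood at 20.9 ± 3.58 CPM in control and 9.98 ± 4.28 CPM at 1 Hz (SD, n = 6 each), the groups overlapping (log2 fold change -1.12 ± 0.20, edgeR adjusted p = 0.000167). Pax7, the satellite cell factor, was counted as higher at 1.86 and 3.72 CPM in mean (0.99, edgeR adjusted p = 0.0349), a call lost on leaving out any of 6 of the 12 libraries in turn.

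Rapidly induced, activity-dependent genes did not move as one. Of 39 tested, 11 rose and 5 fell (median log2 fold change 0.15). After Arc, the largest rises were of Csrnp1 (0.95), Klf10 (0.91), and Fosb (0.83). Klf4, a zinc finger factor, had 106, 142, and 175 CPM in control and 184, 233, and 272 CPM at 1 Hz (0.72 ± 0.10, edgeR adjusted p = 8.36e-06), and Egr3 16.3, 27.2, and 31.4 CPM in control and 33.0, 42.0, and 47.4 CPM at 1 Hz (0.69 ± 0.13, edgeR adjusted p = 0.000183). Fos moved the other way, from 21.8, 27.4, and 37.6 CPM in control to 9.55, 11.2, and 18.1 CPM at 1 Hz, without overlap (-1.26 ± 0.25, edgeR adjusted p = 0.000473). Jun (-0.45, edgeR adjusted p = 0.00126) and Egr1 (-0.22, edgeR adjusted p = 0.176) did not pass. The interval between the last light period and RNA extraction was not used here. Of 32 genes of the calcineurin, NFAT, and PGC-1 pathways, 6 rose and 1 fell, or 21.9% changed, beside 18.3% of all genes. Beside Nfatc1, these were the estrogen-related receptor Esrrg (1.52), the calcineurin regulator Rcan2 (0.78), Pprc1 (0.69), and the class IIa deacetylases Hdac9 (0.74) and Hdac4 (0.68), and Sirt1 fell by 0.51 on the log2 scale, a call lost on leaving out any of 7 libraries in turn. Ppargc1a, the PGC-1 alpha gene, stood at 5.00 and 6.48 CPM in mean (0.38, edgeR adjusted p = 0.149).

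Collagens and other matrix genes made up a further group. Of 21 collagen genes tested, 12 rose and 0 fell, with a median log2 fold change of 0.59, and as a share of the library all 35 collagen genes went from 0.141% ± 0.0316 to 0.213% ± 0.0361 (SD, n = 6 each, exact permutation p = 0.008658, BH adjusted p = 0.0130). Col12a1, which binds to fibrils, had 39.7, 47.4, and 52.7 CPM in control and 76.1, 109, and 148 CPM at 1 Hz (1.28 ± 0.16, edgeR adjusted p = 2.75e-06). The basement membrane collagens Col18a1 (1.10), Col4a1 (0.65), and Col4a2 (0.61), and the fibrillar Col5a2 (0.86) and Col3a1 (0.59) rose. The third collagen VI chain, Col6a3, did not follow the other two, at 139.8 and 130.4 CPM in mean (-0.10, edgeR adjusted p = 0.643). Among 48 matrix glycoproteins and collagen-processing genes, 21 rose and 3 fell (median 0.42). The proteoglycan Bgn had 219, 233, and 272 CPM in control and 334, 542, and 646 CPM at 1 Hz (1.15 ± 0.15, edgeR adjusted p = 6.61e-06), and Fbln1 (2.01), Fbln2 (1.13), Nid1 (0.73), and Lama2 (0.76), the laminin chain of the muscle basement membrane, rose. Ccn1, a matricellular target of YAP and serum response factor, fell from 311, 383, and 425 CPM to 134, 189, and 235 CPM (-1.07 ± 0.17, edgeR adjusted p = 6.09e-05). Of 29 proteases and inhibitors, 6 rose and 2 fell, with the gelatinase Mmp2 at 127, 165, and 190 CPM in control and 262, 470, and 540 CPM at 1 Hz (1.48 ± 0.17, edgeR adjusted p = 1.22e-06) and Mmp19 also at 1.48. The fibroblast markers Dpep1 and Pi16 rose in the same libraries as given above, and their part in the matrix genes was not tested.

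Of 46 genes of myokines and growth factors tested, 21 rose and 0 fell (median log2 fold change 0.53). Csf1, the macrophage growth factor, had 38.1, 46.7, and 57.8 CPM in control and 83.6, 144, and 189 CPM at 1 Hz (1.61 ± 0.16, edgeR adjusted p = 4.7e-07). Igfbp5, which binds insulin-like growth factors, had 401, 497, and 652 CPM in control and 835, 1118, and 1375 CPM at 1 Hz (1.13 ± 0.15, edgeR adjusted p = 7.24e-06). The neurotrophic factor Gdnf (20.4 to 27.6 CPM in control and 34.1 to 61.7 CPM at 1 Hz, log2 fold change 1.13) rose together with Nrg1. The activin subunit Inhba (1.24), Bmp4 (1.18), the chemokine Cxcl12 (1.16), Fgf21 (1.07), Vegfa (0.65), and Gdf15 (0.85) were further members that rose. Il6 was at 2.21 and 3.17 CPM in mean (0.48, edgeR adjusted p = 0.286), Fndc5 at 19.4 and 19.8 CPM (0.03, edgeR adjusted p = 0.853), Bdnf at 18.3 and 18.8 CPM (0.05, edgeR adjusted p = 0.819), and Mstn at 1.14 and 2.06 CPM (0.78, edgeR adjusted p = 0.134).

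Genes of the endoplasmic reticulum (ER) and of ATF4, the transcription factor of the amino acid and unfolded protein responses, made up a further group that rose. Of 39 tested, 25 rose and 0 fell (median log2 fold change 0.59). In 22 of them every 1 Hz library lay above every control, as in 7.22% of all genes tested. Hspa5, the chief chaperone of the ER, had 1374, 1636, and 1829 CPM in control and 2249, 3874, and 4918 CPM at 1 Hz (1.20 ± 0.14, edgeR adjusted p = 2.25e-06). Calr, a calcium-binding chaperone, had 1311, 1410, and 1551 CPM in control and 1761, 3003, and 3775 CPM at 1 Hz (1.08 ± 0.14, edgeR adjusted p = 4.67e-06). Herpud1 (1.19), Manf (1.15), Hsp90b1 (0.96), and the disulfide isomerase Pdia6 (0.89) rose. On the ATF4 side, Atf4 itself had 503, 593, and 643 CPM in control and 756, 890, and 964 CPM at 1 Hz (0.57 ± 0.07, edgeR adjusted p = 5.02e-06), and its known targets Slc7a11 (1.54), Phgdh (1.04), Asns (0.70), and Psat1 (0.72), which import cystine or make serine and asparagine, rose. Ddit3 (0.48, edgeR adjusted p = 0.0119) and Xbp1 (0.48, edgeR adjusted p = 0.000703) stayed under the size threshold, and total-count scaling took the call from Atf4.

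Of 32 heat shock genes and chaperones tested, 6 fell and 2 rose (median log2 fold change -0.13). Besides Hspa1a (-2.46), the genes that fell were its near-identical copy Hspa1b, Hsph1 (-1.01), Hsp90aa1 (-0.76), Hspb1 (-0.76), and the factor Hsf2 (-0.60). Hspa1b had 247, 289, and 396 CPM in control and 86.0, 100, and 138 CPM at 1 Hz (-1.52 ± 0.32, edgeR adjusted p = 0.000685), and reads could be split between the copies, so the level of each is uncertain. Hsp90aa1, the inducible cytosolic chaperone, had 1035, 1308, and 1718 CPM in control and 634, 778, and 902 CPM at 1 Hz, without overlap (edgeR adjusted p = 0.00149). Its constitutive relative Hsp90ab1 was at 3034 and 3117 CPM in mean (0.04, edgeR adjusted p = 0.719). Hspb7, a small heat shock protein of the sarcomere, rose (0.97), as did Hspb3 (0.58), the latter call being lost on leaving out any of 7 of the 12 libraries.

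Of 38 hypoxia and antioxidant targets, 6 rose and 4 fell, with a median of 0.11, beside 9.34% and 8.99% of all genes. Gsr, which reduces glutathione, had 68.4, 79.4, and 84.6 CPM in control and 36.5, 41.6, and 57.2 CPM at 1 Hz (-0.86 ± 0.11, edgeR adjusted p = 4.67e-06). Gclm (-0.76) of glutathione synthesis and the peroxiredoxin Prdx6 (-0.68) fell, also without overlap, whereas the extracellular dismutase Sod3 rose from 10.6, 11.3, and 18.6 CPM to 27.4, 33.8, and 55.2 CPM (1.60 ± 0.22, edgeR adjusted p = 9.97e-06), and carbonic anhydrase Car9 rose by 0.81. Of 18 interferon-stimulated genes, 5 fell and 0 rose, with Irf9 at 15.6 and 9.68 CPM in mean (-0.71 ± 0.14, edgeR adjusted p = 0.00046) and Irf1 (-0.58), Xaf1 (-0.68), Ifi35 (-0.63), and Isg15 (-1.12) beside it. Of 53 genes of atrophy, autophagy, and the proteasome, 1 rose and 2 fell (median -0.15). These were Klf15 (1.55), a low-level factor at 0.687 and 2.05 CPM in mean, and the proteasome subunits Psma1 (-0.58) and Psma5 (-0.53), the last call lost on leaving out any of 3 libraries. Fold changes were below 0 for 36 of the 53 genes and above 0 for 17. Of the proteasome subunits only Psmd1 was above 0 (0.07, edgeR adjusted p = 0.461). Several stayed under the size threshold, such as Psma4 (-0.44, edgeR adjusted p = 0.000538), Psmc2 (-0.42, edgeR adjusted p = 0.000441), and Psmb1 (-0.28, edgeR adjusted p = 0.0015).

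Of 40 genes of glycolysis, glycogen, and glucose uptake tested, 10 rose and 3 fell (median log2 fold change 0.23). Pygm, the muscle glycogen phosphorylase, had 85.7, 99.2, and 120 CPM in control and 140, 157, and 197 CPM at 1 Hz (0.73 ± 0.12, edgeR adjusted p = 5.06e-05), and Pfkm, the muscle phosphofructokinase, 226, 255, and 293 CPM in control and 332, 377, and 459 CPM at 1 Hz (0.61 ± 0.09, edgeR adjusted p = 3.34e-05). Pgam2 (0.86) and Eno3 (0.57), also muscle isoforms, and Aldoc (0.52) and Slc2a3 (0.56), which are not, rose. Pgam1 (-0.09, edgeR adjusted p = 0.255) and Eno1 (0.02, edgeR adjusted p = 0.913), the ubiquitous relatives of Pgam2 and Eno3, did not pass. Not all muscle isoforms rose. The muscle aldolase Aldoa (0.28, edgeR adjusted p = 0.0503) and the muscle glucose transporter Slc2a4 (0.35, edgeR adjusted p = 0.331) did not pass. The pyruvate dehydrogenase kinases Pdk4 (0.61) and Pdk2 (0.63) rose. Txnip, its relative Arrdc4 (-0.57), and Phkg1 (-0.85), a muscle subunit of phosphorylase kinase, fell. The call of Arrdc4 was lost on leaving out any of 10 libraries, those of Phkg1 and Slc2a3 any of 8, and that of Aldoc any of 4.

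Of 81 nuclear genes of the respiratory chain, 4 rose and 0 fell (median log2 fold change 0.12). They included Cox8b (0.81) and Cox6a2 (0.65), the muscle isoforms of cytochrome oxidase subunits, the first without overlap at 22.0 to 31.2 and 32.4 to 58.2 CPM. Of 42 genes of fatty acid oxidation and the citrate cycle, the fatty acid transporter Cd36 (1.04) and Suclg2 (0.99) rose, and of 34 of cholesterol and fatty acid synthesis 3 rose, among them Dhcr7 (0.83), which makes the last step to cholesterol. Of the 13 protein-coding genes of the mitochondrial genome 1 fell, mt-Co2 (-0.66, edgeR adjusted p = 0.0308, lost on leaving out any of 5 libraries), and their share of the library was 2.00% ± 0.293 in control and 1.64% ± 0.292 at 1 Hz (SD, n = 6 each, exact permutation p = 0.0584, BH adjusted p = 0.0731). That difference passed the threshold as a share of protein-coding counts (-0.416 percentage points) and without 1 Hz library 1 (-0.456), control library 2 (-0.448), or control library 4 (-0.415). The single gene of the other strand, mt-Nd6, was at 0.65 (edgeR adjusted p = 0.0973), and its reads could not be told from those of the opposite strand, since strand use in counting is not stated.

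**Figure D5:**
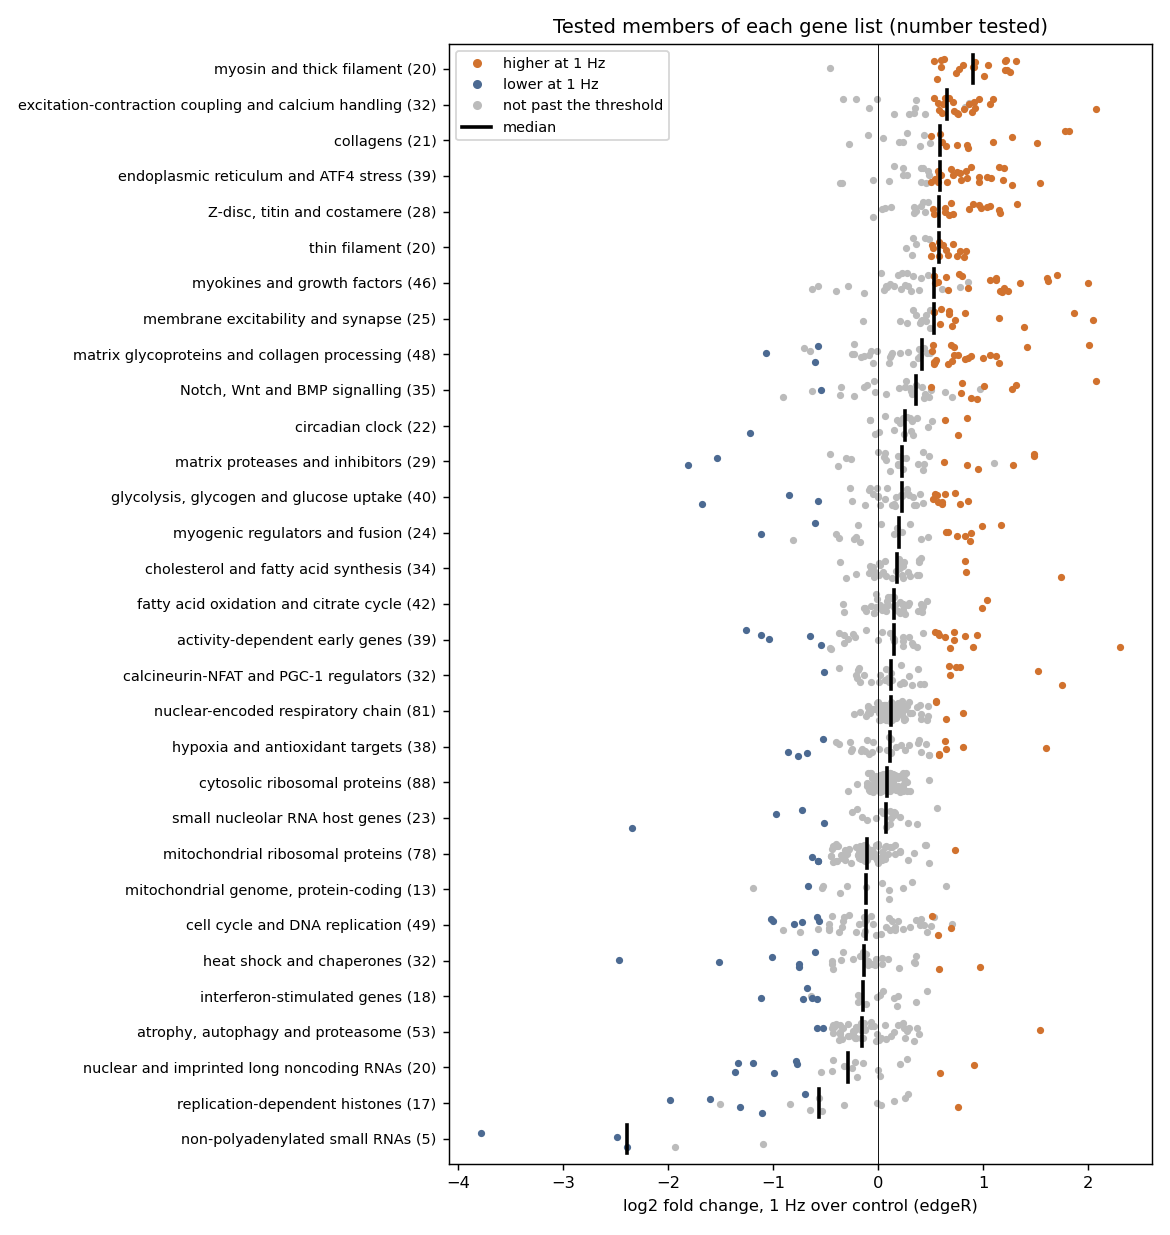
Log2 fold change of 1 Hz over control for every tested member of each gene list, ordered by median. Colored points passed the edgeR threshold, gray points did not, and black bars are medians. The thick filament list has 19 of 20 members to the right as changed, and the small RNAs have the lowest median, at -2.39.

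The windows from 250 bases before to 50 bases after gene starts were searched for 5 motifs. RefSeq windows (GRCm38.p6) were matched to 920 of 1243 gene symbols that rose and 826 of 1197 that fell. The E-box CAGCTG, which binds myogenic factors, was held on either strand by 19.2% of windows of genes that rose, 16.9% of those that fell, 15.6% of those of all genes tested, and 16.3% of all windows. For the AP-1 site TGANTCA these shares were 8.59%, 7.0%, 5.32%, and 7.81%, for the CRE core TGACGT 7.84%, 9.3%, 11.3%, and 7.51%, for the CArG box of serum response factor 2.31%, 0.8%, 1.35%, and 1.63%, and for the MEF2 box 0.826%, 0.5%, 0.524%, and 0.557%. The letters of no motif hold those of another. A match describes letters and not a bound site. The windows of 4 genes described above are printed with the matches in capitals, Acta1 holding an E-box and a CArG box, Chrng a pair of E-boxes, Col6a1 an AP-1 site, and Fos, which fell, a CRE core and an E-box.
Acta1, chr8:123894726-123895025, minus strand: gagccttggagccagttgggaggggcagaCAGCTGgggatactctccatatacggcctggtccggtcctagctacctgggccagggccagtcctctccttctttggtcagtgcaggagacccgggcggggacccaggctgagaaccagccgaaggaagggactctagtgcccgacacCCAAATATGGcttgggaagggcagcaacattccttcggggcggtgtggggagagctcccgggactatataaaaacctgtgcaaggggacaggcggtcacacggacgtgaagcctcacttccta
Chrng, chr1:87205561-87205860, plus strand: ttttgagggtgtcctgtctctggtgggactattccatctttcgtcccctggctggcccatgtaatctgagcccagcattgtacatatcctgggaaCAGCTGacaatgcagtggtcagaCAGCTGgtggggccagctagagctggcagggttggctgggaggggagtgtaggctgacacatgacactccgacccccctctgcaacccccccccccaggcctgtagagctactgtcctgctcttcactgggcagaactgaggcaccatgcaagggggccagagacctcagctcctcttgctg
Col6a1, chr10:76725995-76726294, minus strand: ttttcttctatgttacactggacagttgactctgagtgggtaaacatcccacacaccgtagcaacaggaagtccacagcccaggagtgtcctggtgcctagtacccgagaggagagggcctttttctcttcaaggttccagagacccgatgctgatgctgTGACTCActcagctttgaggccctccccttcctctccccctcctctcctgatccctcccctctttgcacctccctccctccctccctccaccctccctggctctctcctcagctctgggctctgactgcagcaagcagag
Fos, chr12:85473640-85473939, plus strand: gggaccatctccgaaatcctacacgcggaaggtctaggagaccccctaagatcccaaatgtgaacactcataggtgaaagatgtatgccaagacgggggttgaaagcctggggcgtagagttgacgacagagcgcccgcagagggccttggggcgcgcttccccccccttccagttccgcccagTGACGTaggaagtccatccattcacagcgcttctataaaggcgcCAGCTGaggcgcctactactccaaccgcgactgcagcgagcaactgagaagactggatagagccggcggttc

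The higher frequencies were compared with 1 Hz in the same edgeR fit, and since the comparisons share the 1 Hz libraries with the one above, the values are given side by side. At 4 Hz 212 genes were higher and 187 lower than at 1 Hz (1.59% and 1.4% of those tested), and at 10 Hz 1258 and 1131 (9.45% and 8.49%). The thick filament list had 0 of 20 members past both thresholds at 4 Hz against 1 Hz (lowest edgeR adjusted p = 0.0371), and 1 higher and 13 lower at 10 Hz. Of the calcium handling genes 1 was higher and 0 lower at 4 Hz, and 0 higher and 14 lower at 10 Hz. Of the 39 ER and ATF4 genes 1 was higher and 3 lower at 4 Hz, and 1 higher and 25 lower at 10 Hz, the higher gene being Ddit4 at both (0.95 and 0.88). Of the 21 collagens 0 were higher at either, and 1 and 11 were lower. Of the 39 early genes 17 were lower and 1 higher at 4 Hz than at 1 Hz, and 16 and 1 at 10 Hz, and of the 13 mitochondrial coding genes 6 were higher at 4 Hz and 5 at 10 Hz. Csrnp1 was lower by 1.26 at 4 Hz (edgeR adjusted p = 2.34e-07) and 1.504 at 10 Hz (edgeR adjusted p = 7.3e-09), Klf4 by 0.85 and 0.90, and Fosb by 1.66 and 1.27 on the log2 scale. Egr1, not changed past the threshold between 1 Hz and control, was lower than at 1 Hz at both 4 Hz (-0.96, edgeR adjusted p = 3.19e-05) and 10 Hz (-0.87, edgeR adjusted p = 1.47e-05). Gdnf was lower by 1.13 at both frequencies. Rn7sk was at 0.18 at 4 Hz against 1 Hz (edgeR adjusted p = 0.841) and higher by 2.64 at 10 Hz (edgeR adjusted p = 3.96e-05).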

How the data were processed

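The authors sequenced paired-end libraries, made after poly(A) selection or, for unnamed low-input samples, ribodepletion. The submitters' processing notes name STAR, Salmon, BWA 0.7.12-r1039, and bedtools 2.25.0, and the builds GRCm39, mm10, and hg19, without giving a role to each. The authors deposited estimated counts per gene from Salmon, which are not normalized, and TPM, which the authors scaled to a fixed sum per library. Both tables held 56941 genes. Strand use and the annotation release are not stated for the counting.

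Groups came from the sample titles. Estimated counts were rounded, genes were kept with filterByExpr by condition, and all 24 libraries entered 1 quasi-likelihood model (edgeR 4.0.16 in R 4.3.3, TMM scaling) for the contrast 1 Hz minus control. Errors of fold changes are |log2 fold change| over the root of F. Shares were compared with 2-sided exact permutation tests. Named genes were the 10 largest rises and falls with a mean of at least 10 CPM and no overlap, without predicted genes and pseudogenes, the members of the lists, and near-identical copies, some of which are not reported here. The comparison, lists, and tests were chosen with earlier results of these data known. The fit was tested on simulated data. Positions are from GENCODE M39 (GRCm39). Alternatives were DESeq2 1.42.0 and its size factors, total-count scaling, other filters, limma 3.58.1 on TPM, only the 12 libraries, a replicate block, protein-coding genes only, the covariates, other thresholds and denominators, and leaving out each library. Control and 1 Hz libraries compared within groups in 30 pairs were not duplicates (chi-square per gene at least 3.31).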

Additional observations from a re-analysis of the deposited data

Results flagged for a closer look

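Of 82 groups of 6 libraries examined, covering the named genes, the shares, and the myosin isoforms, 7 had a library set apart by a gap to its neighbour above the 95% critical value of Dixon's test, and chance gives about 1 in 20. At 1 Hz, Rn7sk had a highest library of 27.6 CPM with the next at 12.6 CPM, all annotated small RNAs a highest of 86.9 CPM with the next at 44.5 CPM, and Nefl a highest of 26.4 CPM with the next at 14.7 CPM. The share of Myh3 in the summed myosin TPM had a lowest 1 Hz library of 27.1% with the next at 29.8%. In control, Nefl had a highest library of 132 CPM with the next at 53.2 CPM, Txnip a highest of 281 CPM with the next at 182 CPM, and Snhg7 a lowest of 24.8 CPM with the next at 39.3 CPM. For Rn7sk, Nefl, Txnip, and Snhg7 the rule for naming genes required groups without overlap, so their lack of overlap says nothing about these libraries. The share of all annotated small RNAs, which was under no such rule, did not overlap with its set-apart library included (134 to 225 CPM in control and 20.5 to 86.9 CPM at 1 Hz).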

How the results depend on the processing

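Against 1244 higher and 1197 lower genes, an adjusted p alone gave 2414 and 2306, a fold change beyond 1 gave 326 and 433, limma on log2(TPM + 1) 828 and 1157, a mean of at least 5 CPM 919 and 742, and scaling by total count 942 and 1595 (37.1% higher instead of 51.0%). The small RNA share as covariate gave 1 and 0, and the ribosomal RNA share 1 and 1. Leaving out each library gave 1109 to 1413 higher and 1055 to 1378 lower genes. The numbers of the replicates did not pair the samples (correlations of same-numbered deviations from -0.13 to 0.19), and the replicate block gave 1235 higher and 1195 lower genes. Of 311 named genes, 306 kept direction and call with the block, 308 with DESeq2, 276 to 304 without each library, 270 with total-count scaling, and 248 and 249 with limma on log2(TPM + 1) and log2(TPM + 0.1), none of them reversing.

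List medians moved mainly under the covariates. With the small RNA and the ribosomal RNA share in turn, they were 0.51 and 0.40 for the thick filament, 0.35 and 0.32 for the thin filament, 0.32 and 0.32 for the Z-disc, 0.32 and 0.30 for calcium handling, 0.29 and 0.24 for excitability, 0.0638 and -0.0357 for glycolysis, 0.32 and 0.29 for myokines, 0.37 and 0.39 for the ER and ATF4, 0.0901 and 0.12 for the clock, and -0.0315 and -0.0253 for small RNAs. With the small RNA share they were -0.0195 for calcineurin and PGC-1, 0.0589 for fatty acid oxidation, 0.0403 for interferon, and -0.0389 for hypoxia and antioxidants. With the ribosomal RNA share they were 0.0153 for the respiratory chain, 0.32 for collagens, 0.22 for matrix glycoproteins, -0.0137 for heat shock, -0.0474 for atrophy and proteasome, 0.11 for Notch, Wnt and BMP, and -0.0219 for ribosomal proteins. With limma on log2(TPM + 1) the medians were 0.70 for the thick filament, 0.37 for myokines, and -0.01352 for ribosomal proteins, with log2(TPM + 0.1) 0.71 and -0.01353 for the first and last, and with at least 5 CPM -0.19 for histones.

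Fold changes that reversed were, with the small RNA share, Ryr3 -0.0112, Nr4a2 0.0874, Sirt1 0.0358, Mmp10 0.43, and Mcm5 0.35, and with the ribosomal RNA share Rn18s-rs5 0.0496, Lars2 0.26, Nr4a2 0.17, Jund -0.17, Sirt1 0.24, Gys1 -0.0190, Mmp10 0.16, and Snhg3 0.0293. The covariates do not overlap between the groups, and beyond that the cause was not tested. Of the shares, ribosomal proteins (0.0622 percentage points) reversed as a share of protein-coding counts (-0.0471) and without 1 Hz library 4 or 6 or control library 6 (-0.0274, -0.0752, and -0.137), in a range of -0.137 to 0.178 over the libraries left out. With TMM-scaled sizes, glycolysis (0.297) and the respiratory chain (0.116) passed the threshold and long noncoding RNA (-0.161) no longer did. Mitochondrial coding genes passed as a share of protein-coding counts (-0.416) and without 1 Hz library 1 or control library 2 or 4 (-0.456, -0.448, and -0.415), in a range of -0.456 to -0.296. The Myh2 share reversed without 1 Hz library 1 or 5 or control library 1 (0.0225, 0.0025, and 0.0648), in a range of -0.107 to 0.0648. Totals as low as 4085578 counts limit the precision of genes of a few CPM.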

Other observations

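Of 49 genes of the cell cycle and DNA replication tested, 3 rose and 6 fell at 1 Hz (median log2 fold change -0.12), beside 9.34% and 8.99% of all genes. Cdc6, which loads the replicative helicase (-1.02), and the mitotic kinesin Kif20a (-0.72) fell, Ccnd3, a D-type cyclin, rose by 0.51 (a call lost on leaving out any of 5 libraries), and Cdkn1a, an inhibitor of cyclin-dependent kinases, was at 1318 and 1444 CPM in mean (0.13, edgeR adjusted p = 0.229). Of 35 genes of Notch, Wnt, and BMP signalling, 9 rose and 1 fell (median 0.36). The Wnt target Axin2 went from 6.48 to 12.3 CPM in mean (0.94 ± 0.17, edgeR adjusted p = 0.000165), and Wnt10a (1.32), Lef1 (1.01), Fzd4 (0.79), and the Notch ligand Jag1 (0.80) rose, while the Notch target Hes1 fell by 0.54 on the log2 scale, a call lost without control library 2. Of 22 clock genes, 3 rose and 1 fell, or 18.2% changed, which is the share over all genes (18.3%). Among them Per2 (0.85) and Rora (0.64) rose and Npas2 (-1.22) fell. The calls of Rora and Npas2 were lost on leaving out any of 3 and any of 5 libraries.

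The machinery of translation changed little. Of 88 cytosolic ribosomal protein genes, 0 rose and 0 fell in edgeR or DESeq2, with 15 at an unadjusted p below 0.05 in edgeR (68 fold changes above 0, 20 below, median 0.09), and their share of the library was 6.34% ± 0.589 in control and 6.40% ± 0.460 at 1 Hz (SD, n = 6 each, exact permutation p = 0.831). Of 78 mitochondrial ribosomal protein genes, Mrps28 rose (0.73) and Mrpl45 (-0.63), Mrps22 (-0.57), and Mrpl35 (-0.57) fell. Their fold changes were above 0 for 25 and below 0 for 53 (median -0.11). Some stayed under the size threshold, such as Mrpl9 (-0.45, edgeR adjusted p = 0.000265). Of 23 small nucleolar RNA host genes, 4 fell and 0 rose, or 17.4% changed, beside 18.3% of all genes (8.99% down). These were Snhg7 (-2.34), Snhg10 (-0.98), Snhg3 (-0.73), and Snhg20 (-0.52). Of them Snhg10 and Snhg20 each lost the call on leaving out any of 3 libraries and Snhg3 without 1 Hz library 6. Gas5 was at 179.6 and 200.6 CPM in mean (0.16, edgeR adjusted p = 0.140).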
